A study of Mus musculus with 38 samples.

Results

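Colon mucosa was compared with villi of the proximal small intestine in vitamin D deficient mice, using 6 vehicle colon libraries and 6 vehicle villus libraries out of 38 RNA-seq libraries in the series. The mice were wild-type C57BL6/J animals, sexes pooled according to the labels, and every animal in both groups was vitamin D deficient. Each had received 0.1 ml of a propylene glycol and ethanol vehicle and was killed 4 h later. The labels give their age as 10 to 13.3 weeks in one field and as 12 to 14 weeks in the treatment protocol. Colon samples came from the whole length between cecum and rectum, and the mucosa was scraped off with glass until only muscle remained, so stroma could come with it. Villi came from 10 to 15 cm of the upper small intestine, which the labels treat as duodenum, and were freed with 3 mM EDTA and parted from crypts on a 70 µm filter. Colon therefore differed from villi in gut segment, in the presence of crypts and stroma and in the way the cells were taken, and these cannot be told apart here. The other groups used below, for values side by side, were 6 vehicle crypt libraries and 7 colon and 7 villus libraries of deficient mice given 10 ng per g of 1,25(OH)2D3. How many mice went into a library is not known from the labels. The p-values therefore measure only the spread between these samples, which may be technical.

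The duodenal villus is the site where most sugar, peptide, fat, iron and calcium enters the body, and its enterocytes carry brush-border enzymes and transporters for each. The colon has no villi: its surface colonocytes take up salt, water and short-chain fatty acids made by bacteria, and its many goblet cells keep up the mucus layer. Position along the gut is held by transcription factors, among them GATA4 and PDX1 in the upper small intestine and the posterior HOX proteins in the colon. Vitamin D acts in both segments through its receptor, which is made throughout the intestinal epithelium.

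Values are given as scaled FPKM: the deposited FPKM, a level per transcript length and library size, multiplied by 1 factor per library (0.811 to 0.849 for colon, 1.18 to 1.25 for villi) so that the median of 9444 genes found in both tissues was the same in every library. Differences are colon minus villi on log2(FPKM + 0.5) with their standard error, a scale that understates the change of low genes. A gene was called when its adjusted p from limma, taken over 10989 tested genes, was under 0.05 and its log2 difference was at least 1 in size. Depth read from the steps between low FPKM values was 14.3 to 15.8 M reads for colon libraries and 15.9 to 16.8 M for villus libraries. The colon and villus FPKM come from separate tables, so tissue and table cannot be told apart in any comparison below.

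Of the 10989 genes, 3507 (31.9%) were called, 2136 (19.4%) higher and 1371 (12.5%) lower in colon. The median difference of all tested genes was 0.126. The shares of 19.4% and 12.5% are the ones to set beside each list count below. The 12 libraries gave levels that did not overlap between the tissues for 46.5% of the genes tested. The split of the calls depended on how the 2 tables were brought together: without centring 82.7% of the calls were higher in colon and with centring on the 75th percentile 72%, against 60.9% in the main analysis, and with ribosomal protein genes as the centre it was 6.82%. Those settings shifted the median of all genes by 0.534, 0.235 and -1.38.

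Some libraries carried genes of the other tissue. The sum of 12 villus genes, among them Apoa1, Apoa4, Fabp1 and Lct, stood in colon 5 and colon 6 at 3.22% and 1.38% of the villus median, against 0.0232% to 0.0514% in colon 1 to 4. The sum of 12 colon genes stood in villi 4, 5 and 6 at 0.372%, 0.677% and 1.82% of the colon median, against 0.0419% to 0.0869% in villi 1 to 3. The table columns of colon 5 and 6 have names starting with 30 and 6, and those of villi 5 and 6 with 29 and 5, whereas the other 4 libraries of each tissue have plain names. Xist and Ddx3y gave a female pattern in replicates 1 to 3 and a male pattern in replicates 4 to 6 of both tissues, so name style and sex pattern partly coincide with these levels; their part was not tested. Of the 310 genes lower in colon by log2 3 or more, 197 (63.5%) were higher in both colon 5 and colon 6 than in colon 1 to 4, against 12.5% of all genes tested. Of the 289 genes higher in colon by log2 3 or more, 102 (35.3%) were higher in each of villi 4 to 6 than in villi 1 to 3, against 17.1% of all genes tested. Where a named gene's difference moved by over 1.5 times, it is therefore also given without colon 5 and 6 or in colon 1 to 4 and villi 1 to 3 alone, or without 1 library where that alone moved it.

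**Figure D1:**
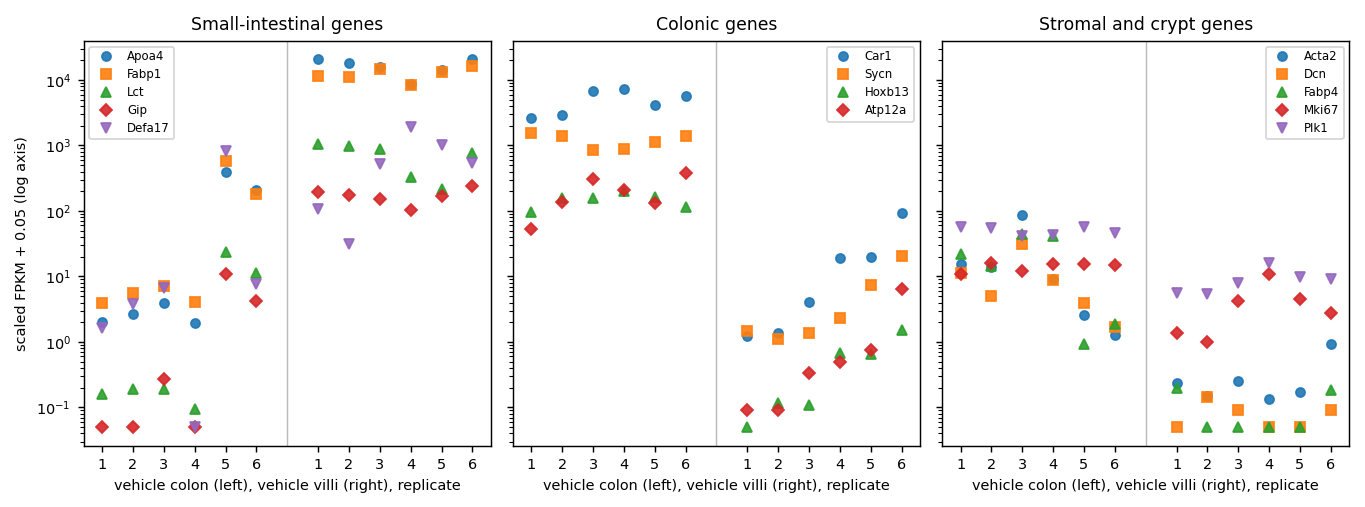
Levels of 14 genes in each library (scaled FPKM + 0.05, log axis), vehicle colon left and vehicle villi right, in panels for small-intestinal, colonic, and stromal and crypt genes. Apoa4 lay at 389 and 211 in colon 5 and 6, the highest of the colon libraries, and Car1 at 94.5 in villi 6, the highest of the villus libraries.

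Posterior HOX genes were expressed in colon and near 0 in villi, and more genes of upper-gut transcription factors were lower than higher in colon. Of 27 genes of HOX and other distal factors found in the tables, 17 passed the filter and all 17 were higher in colon, with a median difference of 3.99; since they passed through the colon libraries they had to differ, and nothing is read from that count. By cluster, the mean colon levels of the listed genes were 5.04 to 16.4 for 5 HOXA genes, 0.777 to 148 for 9 HOXB genes and 0.567 to 20.0 for 7 HOXD genes, whereas 4 HOXC genes stayed at 0.0145 to 0.115. In villi no HOX gene of the 4 clusters had a mean above 0.467. Hoxb13, the last gene of its cluster and a marker of the hindgut, lay at 97.2 to 201 (median 155) in colon, against 0 to 1.46 (median 0.332) in villi (log2 difference 7.24 ± 0.30, limma adjusted p = 4.05e-10; 7.86 in colon 1 to 4 and villi 1 to 3). Every colon library was far above every villus library, and within villi the highest values were in replicates 4 to 6. Hoxd13, the matching gene of the D cluster, lay at 15.5 to 27.9 (median 17.1) in colon and 0 to 0.181 (median 0) in villi (log2 difference 4.94 ± 0.17, limma adjusted p = 1.39e-10). Hoxa13 lay at 11.1 to 16.6 (median 14.3) in colon and 0 to 0.183 (median 0) in villi (log2 difference 4.52 ± 0.13, limma adjusted p = 3.65e-11).

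Mir196a-1, which the RefSeq annotation places directly beside Hoxb9 in the HOXB cluster, followed the same pattern. It was listed at 216 to 793 (median 393) in colon and 0 to 10.4 (median 0) in villi (log2 difference 8.12 ± 0.76, limma adjusted p = 6.27e-07; 9.01 in colon 1 to 4 and villi 1 to 3). The value is the FPKM of a short hairpin gene in libraries of long RNA, so it does not measure the mature miRNA, and length-scaled values of so short a gene rest on few reads. The mature 5p sequence (RefSeq, GRCm38.p6, chr11:96265187-96265208, plus strand) is shown because this miRNA is known to repress HOX genes; capitals mark the seed, bases 2 to 8.
miR-196a-5p: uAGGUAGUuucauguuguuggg

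**Figure D2:**
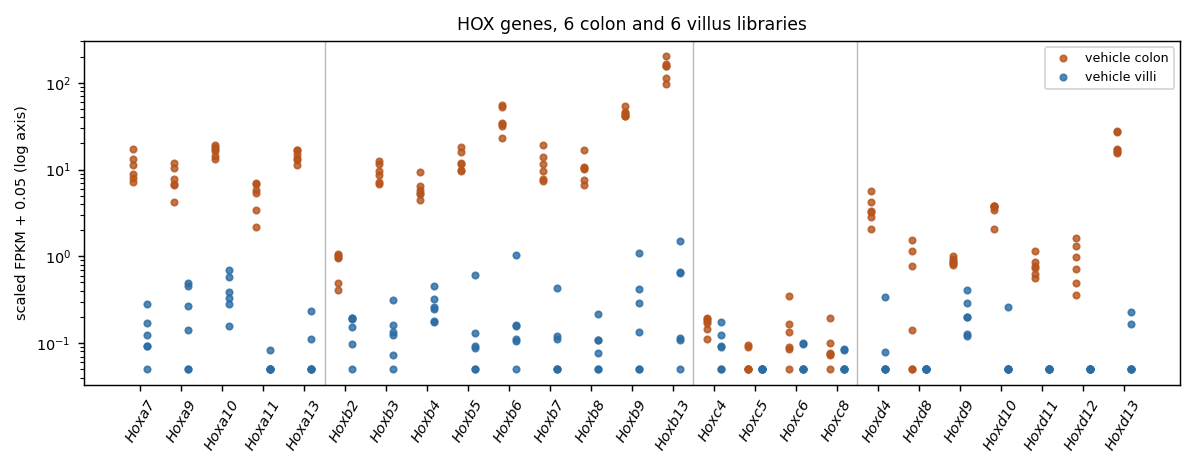
Levels of 25 HOX genes (scaled FPKM + 0.05, log axis) in 6 vehicle colon libraries, drawn left, and 6 vehicle villus libraries, ordered by cluster and gene number. Hoxb13 reached 201 in colon, and the HOXC genes stayed near 0 in both tissues.

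Of 18 tested genes for transcription factors of the upper gut and the absorptive program, 10 were lower and 2 higher in colon, with a median of -1.81. Gata4, the GATA factor that sets jejunal and duodenal identity in the mouse, lay at 0 to 9.11 (median 0.284) in colon and 34.1 to 57.5 (median 49.7) in villi (log2 difference -5.58 ± 0.59, limma adjusted p = 2.17e-06; -6.24 without colon 5). All colon libraries were below all villus libraries, and colon 5, at 9.11, stood apart from the other 5. Gata5 and Gata6 of the same family were at 1.60 to 4.62 (median 1.84) and 22.3 to 26.0 (median 24.5) in colon, against 29.7 to 45.2 (median 40.2) and 59.0 to 105 (median 80.5) in villi, differences of -3.91 and -1.72. Pdx1, the duodenal and pancreatic homeobox gene, was at 0.246 to 6.25 (median 0.423) in colon and 18.6 to 40.5 (median 25.4) in villi (log2 difference -4.53 ± 0.49, limma adjusted p = 2.48e-06; -5.22 without colon 5 and 6). Creb3l3, which switches on genes of triglyceride handling, was at 5.08 to 27.9 (median 10.6) in colon and 314 to 536 (median 443) in villi (log2 difference -5.26 ± 0.36, limma adjusted p = 3.49e-08; -6.00 in colon 1 to 4 and villi 1 to 3). Onecut2 differed by -4.48. Cdx1, an intestinal homeobox gene, was higher in colon at 164 to 290 (median 235), against 71.5 to 90.6 (median 78.0) in villi (log2 difference 1.52 ± 0.12, limma adjusted p = 1.46e-07). Its partner Cdx2 lay at 77.4 to 99.9 (median 84.3) in colon and 58.3 to 100 (median 86.3) in villi, with overlapping groups (log2 difference 0.12 ± 0.14, limma adjusted p = 0.441; -1.25 with ribosomal centring). Hnf4a was at 101 to 181 (median 164) in colon and 98.2 to 174 (median 124) in villi, also overlapping (log2 difference 0.23 ± 0.17, limma adjusted p = 0.25; -1.14 with ribosomal centring).

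Genes for the digestion and uptake of sugars and peptides were lower in colon almost throughout. Of 28 tested members, 25 were lower and 2 higher, with a median of -5.12, and their summed level was 777 to 1655 (median 960) in colon and 20371 to 33189 (median 23544) in villi. Members near 0 in most colon libraries, such as Lct and Slc2a2, passed the filter through the villi. Their part of the count was fixed. In such bulk samples fewer cells of a type and less RNA per cell cannot be told apart. Lct, the milk-sugar enzyme lactase, lay at 0.0454 to 23.2 (median 0.142) in colon and 220 to 1068 (median 830) in villi (log2 difference -8.52 ± 0.99, limma adjusted p = 5.22e-06). No colon library came near a villus library; colon 5 was the highest of the colon libraries, and without colon 5 and 6 the difference was -10.21. Sis, sucrase-isomaltase, lay at 6.43 to 71.0 (median 12.6) in colon and 1542 to 3160 (median 2457) in villi (log2 difference -6.99 ± 0.53, limma adjusted p = 8.23e-08; -7.90 without colon 5 and 6). Treh, trehalase, lay at 0.217 to 25.8 (median 0.694) in colon and 288 to 572 (median 541) in villi (log2 difference -7.65 ± 0.83, limma adjusted p = 2.63e-06; -9.12 without colon 5 and 6). The membrane peptidase Mme was at 0.211 to 20.2 (median 0.566) in colon and 183 to 419 (median 314) in villi (log2 difference -7.29 ± 0.77, limma adjusted p = 2.11e-06; -8.61 without colon 5 and 6).

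Among the sugar transporters, Slc2a2, the basolateral glucose and fructose exit route GLUT2, lay at 0.128 to 16.2 (median 0.266) in colon and 431 to 974 (median 619) in villi (log2 difference -8.57 ± 0.83, limma adjusted p = 9.14e-07; -10.06 without colon 5 and 6). Slc5a1, the sodium-glucose cotransporter SGLT1, lay at 64.6 to 146 (median 96.9) in colon and 2658 to 4195 (median 2991) in villi (log2 difference -5.03 ± 0.19, limma adjusted p = 2.67e-10). Its colon level was thus well above 0 in all 6 libraries, unlike that of Slc2a2. Mep1a, the alpha subunit of the secreted peptidase meprin, ran the other way at 213 to 416 (median 244) in colon and 23.0 to 75.3 (median 66.9) in villi, without overlap (log2 difference 2.37 ± 0.29, limma adjusted p = 9.01e-06). Slc7a7, a basic amino acid exchanger, was the other member higher in colon.

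Nearly all genes of fat absorption were lower in colon, and Apoa4, Apoa1, Apoc3 and Fabp1 were the 4 largest differences of all genes tested. Of 24 tested members 23 were lower in colon and none higher, with a median of -4.08, and the summed colon level was 1.38% of that in villi by medians. Apoa4 and Apoa1, apolipoproteins of the chylomicron, lay at 1.87 to 389 (median 3.29) and 2.65 to 428 (median 5.58) in colon, against 8793 to 20808 (median 17002) and 15096 to 22094 (median 19999) in villi. The differences were -10.20 ± 1.25 and -10.01 ± 1.21 (limma adjusted p = 8.56e-06 and 7.54e-06), and without colon 5 and 6 they were -12.44 and -12.17. Fabp1, a cytosolic fatty acid binding protein, lay at 3.84 to 587 (median 6.34) in colon and 8460 to 16511 (median 12390) in villi (log2 difference -9.19 ± 1.12, limma adjusted p = 8.64e-06; -11.19 without colon 5 and 6), with colon 5 the highest colon library. Mttp, which loads lipid onto apolipoprotein B, was at 0.895 to 80.1 (median 1.52) in colon and 1022 to 1317 (median 1153) in villi (log2 difference -7.91 ± 0.91, limma adjusted p = 4.57e-06; -9.52 without colon 5 and 6). Apoc3, an inhibitor of lipoprotein lipase, differed by -9.75 (-11.68 without colon 5 and 6). The member not called was Clps, the cofactor of pancreatic lipase.

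The RefSeq promoters of Lct and Fabp1 (GRCm38.p6, 250 bases before to 50 after the annotated start) are shown because motifs of GATA, CDX and HNF1 factors are known from enterocyte promoters and GATA and CDX genes were described above. Capitals mark matches on either strand. The letters searched were AGATAA for the factors named after that motif, TTTATNG for CDX, GTTAAT for HNF1, CAAAGTCCA for HNF4, and TATAAA for the TATA box. The letters of CDX and the TATA box can overlap. Among 32851 promoters of the same length, 11.2% held the GATA letters, 10.9% the CDX letters, 7.1% the HNF1 motif, 0.475% the HNF4 letters and 13.6% the TATA box. The Lct window (chr1:128328269-128328568, minus strand) held 2 GATA matches, and the Fabp1 window (chr6:71199629-71199928, plus strand) held 3 CDX matches, 1 HNF1 motif and 1 TATA box. Of 2 further windows searched and not shown, that of Apoa4 held no match and that of Sis 1 CDX match, 1 HNF1 motif and 2 TATA boxes, and the HNF4 letters were in none of the windows searched here. A match describes letters only and no binding was measured.
Lct: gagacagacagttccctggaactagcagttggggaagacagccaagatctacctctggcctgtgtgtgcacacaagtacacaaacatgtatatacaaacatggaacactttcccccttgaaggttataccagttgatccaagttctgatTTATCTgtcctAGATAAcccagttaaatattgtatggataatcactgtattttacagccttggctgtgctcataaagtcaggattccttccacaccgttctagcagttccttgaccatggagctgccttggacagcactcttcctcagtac
Fabp1: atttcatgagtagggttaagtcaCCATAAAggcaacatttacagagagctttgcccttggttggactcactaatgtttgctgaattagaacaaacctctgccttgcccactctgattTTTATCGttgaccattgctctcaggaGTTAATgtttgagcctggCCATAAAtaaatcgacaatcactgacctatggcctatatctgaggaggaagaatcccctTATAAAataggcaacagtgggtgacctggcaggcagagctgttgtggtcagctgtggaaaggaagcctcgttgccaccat

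The bile acid genes split between the segments. Slc10a2, the apical bile acid transporter of the ileum, lay at 39.1 to 110 (median 63.4) in colon and 1.23 to 3.54 (median 1.51) in villi (log2 difference 4.83 ± 0.26, limma adjusted p = 3.64e-09). Fabp6, the cytosolic bile acid binding protein, lay at 11.9 to 122 (median 25.1) in colon and 0 to 0.65 (median 0) in villi (log2 difference 5.17 ± 0.48, limma adjusted p = 5.25e-07; 5.82 in colon 1 to 4 and villi 1 to 3). No villus library reached a colon library for either gene. Within colon, replicate 3 had by far the most Fabp6, at 122. Nr1h4, the bile acid receptor FXR, was at 59.9 to 94.3 (median 85.4) in colon and 12.0 to 37.7 (median 22.5) in villi (log2 difference 1.79 ± 0.24, limma adjusted p = 2.25e-05), whereas its target Nr0b2 was at 0 to 0.262 (median 0.0508) in colon and 8.04 to 16.2 (median 11.7) in villi (log2 difference -4.59 ± 0.19, limma adjusted p = 5.4e-10). The efflux pump gene Abcc2 was also lower, at 0.227 to 14.2 (median 0.671) in colon and 66.1 to 144 (median 111) in villi (log2 difference -5.84 ± 0.67, limma adjusted p = 4.25e-06; -6.95 without colon 5 and 6). Osta and Ostb, both subunits of the basolateral bile acid exporter, were lower, differing by -1.40 and -1.65. In all, 3 of 8 tested members were higher and 4 lower, against 19.4% and 12.5% of all tested genes.

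Among genes of vitamin D and calcium handling, 2 of 7 tested members of 14 listed were lower in colon and none higher. Of all tested genes 12.5% were lower and 19.4% higher. Vdr, the vitamin D receptor, lay at 100 to 169 (median 158) in colon and 124 to 208 (median 169) in villi, with overlapping groups (log2 difference -0.15 ± 0.16, limma adjusted p = 0.438; 0.39 without centring). S100g, the calcium buffer calbindin-D9k, lay at 95.1 to 381 (median 125) in colon and 373 to 1201 (median 887) in villi (log2 difference -2.31 ± 0.37, limma adjusted p = 0.000107). Colon 5 and 6 had the most of the colon libraries, and colon 5, at 381, was just above the lowest villus library; without both the difference was -2.84. Cyp27a1, a mitochondrial sterol hydroxylase, was at 23.7 to 38.9 (median 26.5) in colon and 47.7 to 203 (median 131) in villi (log2 difference -1.91 ± 0.33, limma adjusted p = 0.000216; -2.61 in colon 1 to 4 and villi 1 to 3). Cyp24a1, the hydroxylase that breaks down 1,25(OH)2D3, was at 0.0925 to 52.7 (median 2.39) in colon and 0.0681 to 77.5 (median 1.16) in villi (log2 difference 0.21 ± 1.23, limma adjusted p = 0.89; -1.17 with ribosomal centring). The highest library of each tissue was replicate 6, and the difference was -0.61 without colon 6 and 1.18 without villi 6. Trpv6, the apical calcium channel, was under the filter, at 0.354 to 4.43 (median 1.25) in colon and 0.282 to 2.04 (median 0.385) in villi. Atp2b1, the basolateral calcium pump, lay at 36.1 to 70.2 (median 39.7) in colon and 48.0 to 56.6 (median 51.0) in villi (log2 difference -0.22 ± 0.15, limma adjusted p = 0.205; 0.31 without centring), with overlap.

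Of 19 tested genes of iron, zinc and manganese, 10 were lower and 3 higher in colon. Cybrd1, the duodenal ferric reductase, lay at 0.162 to 0.934 (median 0.33) in colon and 14.1 to 61.0 (median 36.5) in villi (log2 difference -5.47 ± 0.30, limma adjusted p = 4.72e-09), without overlap. The metal carriers Slc30a2, Slc39a14 and Slc30a10 differed by -4.89 (-6.06 in colon 1 to 4 and villi 1 to 3), -2.90 and -2.74 (-3.58 without colon 5 and 6), whereas Slc39a8, another metal importer, was higher at 10.4 to 18.3 (median 16.2) in colon and 2.17 to 3.33 (median 2.99) in villi (log2 difference 2.22 ± 0.15, limma adjusted p = 3.25e-08). For phosphate and magnesium, Alpi and Akp3, both intestinal alkaline phosphatases, were at 24.7 to 274 (median 42.0) and 0.581 to 256 (median 2.02) in colon, against 2427 to 2968 (median 2778) and 1225 to 3954 (median 2744) in villi, differences of -5.54 (-6.30 without colon 5 and 6) and -8.59 (-10.50 without colon 5 and 6). Trpm6, the apical magnesium channel, lay at 16.2 to 48.3 (median 24.4) in colon and 0.0977 to 0.713 (median 0.115) in villi (log2 difference 5.04 ± 0.26, limma adjusted p = 2.93e-09). Every colon library was above every villus library for Trpm6, and the same held for Cnnm4, a basolateral magnesium exporter, at 113 to 142 (median 125) in colon and 28.2 to 44.4 (median 33.7) in villi (log2 difference 1.88 ± 0.11, limma adjusted p = 9.18e-09). Of 11 tested retinoid genes 6 were lower and none higher. Rbp2, the cytosolic retinol carrier of enterocytes, was at 38.4 to 449 (median 51.5) in colon and 6094 to 9864 (median 7919) in villi (log2 difference -6.51 ± 0.52, limma adjusted p = 1.46e-07; -7.42 without colon 5 and 6), and the retinol dehydrogenase gene Rdh7 differed by -7.07 (-8.27 without colon 5 and 6).

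Drug-metabolising P450 genes were mostly lower in colon: 15 of 21 tested members were lower and 2 higher, with a median of -2.43. Cyp3a11, the main intestinal P450 of its family in mice, lay at 0.203 to 111 (median 0.468) in colon and 259 to 1450 (median 584) in villi (log2 difference -7.44 ± 1.23, limma adjusted p = 0.000128). Colon 5 and 6 held 111 and 28.8 and the other 4 under 1, and without colon 5 and 6 the difference was -9.55. Cyp2b10, a target of the receptor CAR, differed by -6.60 (-8.49 without colon 5 and 6) and Cyp3a25 by -7.12 (-8.55 without colon 5 and 6). Both members higher in colon were large: Cyp2c55 lay at 408 to 946 (median 479) in colon and 6.15 to 51.4 (median 33.5) in villi (log2 difference 4.42 ± 0.43, limma adjusted p = 8.37e-07; 3.56 in colon 1 to 4 and villi 1 to 3). Cyp2d34 lay at 116 to 375 (median 160) in colon and 0 to 5.93 (median 0.353) in villi (log2 difference 7.26 ± 0.55, limma adjusted p = 8.42e-08). Neither gene's groups overlapped.

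Genes of conjugation and efflux were divided, with 8 higher and 8 lower of 27 tested, against 19.4% and 12.5% of all tested genes. Sult1a1, a phenol sulfotransferase, lay at 260 to 412 (median 341) in colon and 2.01 to 6.13 (median 2.58) in villi (log2 difference 6.49 ± 0.23, limma adjusted p = 1.73e-10). By contrast, Sult2b1, a sterol sulfotransferase, lay at 36.1 to 63.1 (median 46.9) in colon and 336 to 522 (median 396) in villi (log2 difference -3.12 ± 0.16, limma adjusted p = 2.29e-09). Members of one family thus lay on opposite sides. The glutathione transferase genes Gsta1, Gsta4 and Gstt1 differed by -4.09, -2.94 and -2.87. In fatty acid oxidation, 4 of 25 tested genes were higher and 9 lower, beside the same shares of all tested genes. Cpt1a, the entry enzyme of mitochondrial oxidation, was at 96.1 to 115 (median 103) in colon and 26.4 to 42.6 (median 31.1) in villi (log2 difference 1.66 ± 0.12, limma adjusted p = 6.52e-08). Acads, which oxidises short chains such as butyrate, lay at 75.6 to 108 (median 90.0) in colon and 28.5 to 38.1 (median 33.3) in villi (log2 difference 1.44 ± 0.11, limma adjusted p = 8.91e-08). The peroxisomal genes Ehhadh and Crot were lower, differing by -2.60 and -2.24.

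**Figure D3:**
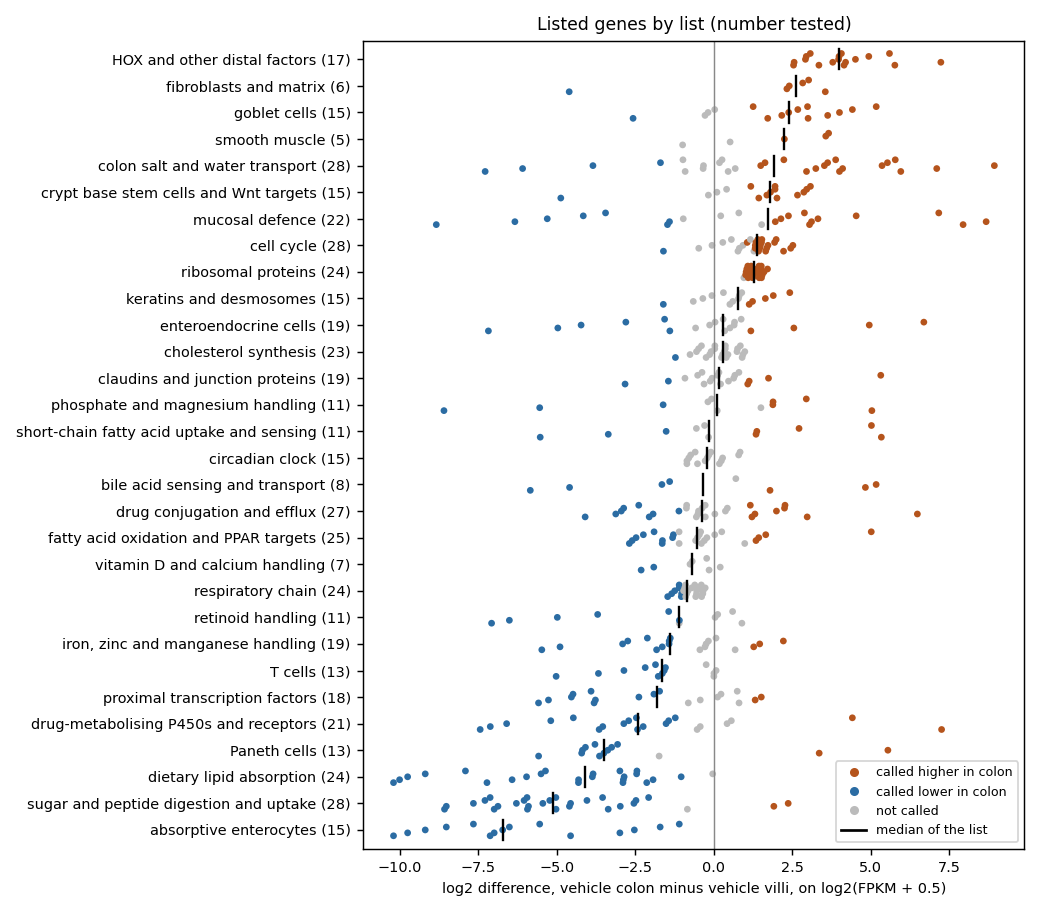
Log2 difference of each tested gene of 30 lists, vehicle colon minus vehicle villi, with the list median as a black line and the number tested beside the list name. Absorptive enterocyte genes had a median of -6.72, genes of colon salt and water transport one of 1.93, and the median of all tested genes was 0.126.

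Of 28 tested genes of salt and water transport, 16 were higher and 4 lower in colon, with a median of 1.93. Members near 0 in villi, such as Scnn1b and Best2, passed the filter through the colon libraries. Their part of the count was fixed. Car1, a cytosolic carbonic anhydrase of colonocytes, lay at 2622 to 7369 (median 4851) in colon and 1.20 to 94.5 (median 11.4) in villi (log2 difference 8.94 ± 0.84, limma adjusted p = 6.76e-07; 10.76 in colon 1 to 4 and villi 1 to 3). It was among the most abundant colon transcripts, and villi 4 to 6 held all villus values above 4.09. Car4, the membrane-bound carbonic anhydrase, was at 1076 to 1773 (median 1441) in colon and 8.06 to 77.4 (median 19.1) in villi (log2 difference 5.96 ± 0.45, limma adjusted p = 8.3e-08; 6.74 in colon 1 to 4 and villi 1 to 3). The subunits of the epithelial sodium channel were all higher: Scnn1a lay at 63.7 to 84.6 (median 69.6) in colon and 4.66 to 8.91 (median 7.05) in villi (log2 difference 3.25 ± 0.13, limma adjusted p = 3.86e-10). Scnn1b and Scnn1g, near 0 in villi, lay at 6.35 to 16.2 (median 12.7) and 1.16 to 25.0 (median 12.0) in colon. Within colon, Scnn1g varied most of the 3 between libraries. Atp12a, the colonic proton-potassium pump, was at 52.2 to 378 (median 171) in colon and 0.0398 to 6.49 (median 0.361) in villi (log2 difference 7.11 ± 0.60, limma adjusted p = 2.34e-07; 7.70 in colon 1 to 4 and villi 1 to 3). The water channel Aqp8 lay at 35.7 to 139 (median 54.5) in colon and 0 to 2.98 (median 0.479) in villi (log2 difference 5.78 ± 0.48, limma adjusted p = 1.95e-07). Best2, a bicarbonate channel of colonic goblet cells, lay at 25.3 to 41.2 (median 34.4) in colon and 0 to 0.776 (median 0.0409) in villi (log2 difference 5.53 ± 0.21, limma adjusted p = 2.19e-10).

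Anion exchangers of one family changed places. Slc26a3, the chloride-bicarbonate exchanger lost in congenital chloride diarrhoea, lay at 439 to 757 (median 562) in colon and 85.6 to 161 (median 111) in villi (log2 difference 2.23 ± 0.18, limma adjusted p = 1.71e-07). By contrast, Slc26a6, the oxalate and bicarbonate exchanger of the upper gut, lay at 0.657 to 20.4 (median 0.849) in colon and 321 to 465 (median 382) in villi (log2 difference -7.28 ± 0.64, limma adjusted p = 3.57e-07; -8.40 without colon 5 and 6). Slc12a2, the basolateral chloride loader of secretory cells, was at 44.0 to 83.2 (median 71.3) in colon and 1.51 to 13.6 (median 5.54) in villi (log2 difference 3.63 ± 0.37, limma adjusted p = 1.56e-06; 4.29 in colon 1 to 4 and villi 1 to 3). The crypts averaged 65.3, near the colon level. Cftr, the apical chloride channel, lay at 23.0 to 42.4 (median 27.7) in colon and 18.7 to 29.7 (median 24.9) in villi, with overlap (log2 difference 0.27 ± 0.15, limma adjusted p = 0.14; -1.11 with ribosomal centring).

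The guanylin peptides, neighbouring genes on chromosome 4 that both act on the receptor guanylate cyclase C, were reciprocal. Guca2a, guanylin, lay at 2965 to 5377 (median 4419) in colon and 157 to 389 (median 265) in villi (log2 difference 4.01 ± 0.21, limma adjusted p = 3.15e-09). Guca2b, uroguanylin, lay at 58.7 to 164 (median 89.4) in colon and 3293 to 11492 (median 7552) in villi (log2 difference -6.09 ± 0.36, limma adjusted p = 7.19e-09; -7.03 in colon 1 to 4 and villi 1 to 3). Every colon library was above every villus library for Guca2a and below every one for Guca2b. Gucy2c, the gene of their receptor, was at 92.7 to 119 (median 100) in colon and 149 to 285 (median 201) in villi (log2 difference -0.98 ± 0.16, limma adjusted p = 0.000116), just short of the minimum difference and without overlap. The RefSeq promoters of the pair (GRCm38.p6, same windows and motifs as above) are shown since the genes lie side by side and moved apart: Guca2a (chr4:119637482-119637781, plus strand) held 2 GATA matches and Guca2b (chr4:119658896-119659195, minus strand) 1 HNF1 motif, in capitals. That a motif's letters were not found in a window says nothing about the factor.
Guca2a: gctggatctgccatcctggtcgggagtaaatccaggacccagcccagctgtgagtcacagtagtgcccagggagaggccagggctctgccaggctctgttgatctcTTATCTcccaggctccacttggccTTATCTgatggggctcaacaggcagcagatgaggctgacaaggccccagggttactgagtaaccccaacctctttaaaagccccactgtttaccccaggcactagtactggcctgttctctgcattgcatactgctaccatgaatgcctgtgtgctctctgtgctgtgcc
Guca2b: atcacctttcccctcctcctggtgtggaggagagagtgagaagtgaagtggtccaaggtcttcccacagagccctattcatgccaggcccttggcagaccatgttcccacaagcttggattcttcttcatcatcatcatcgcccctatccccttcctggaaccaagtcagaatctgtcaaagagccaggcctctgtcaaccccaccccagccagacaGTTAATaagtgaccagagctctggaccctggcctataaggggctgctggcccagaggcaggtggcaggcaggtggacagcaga

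**Figure D4:**
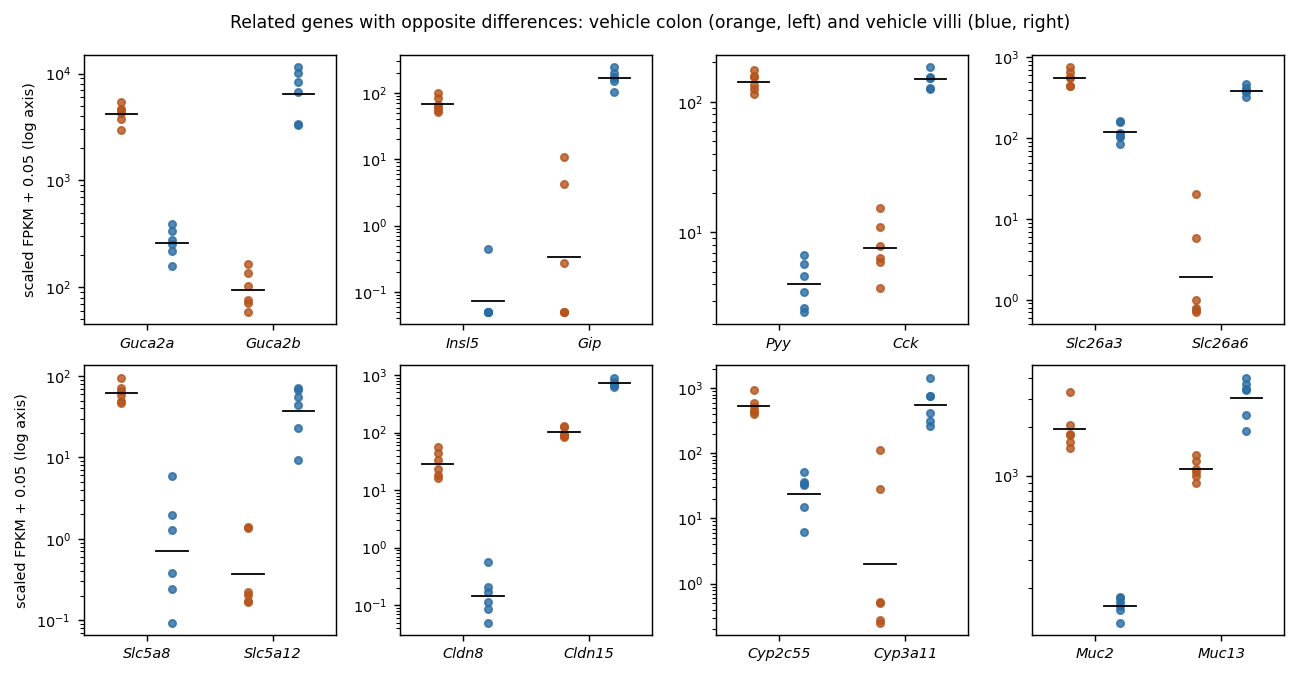
Levels (scaled FPKM + 0.05, log axis) of 8 pairs of related genes in 6 vehicle colon libraries, orange and left, and 6 vehicle villus libraries, blue and right. In each pair the first gene was higher and the second lower in colon, as for Guca2a (4.01) and Guca2b (-6.09).

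Of 9 tested genes of corticosteroid signalling 2 were higher and 1 lower, close to the shares of all tested genes (19.4% and 12.5%). Hsd11b2, the enzyme that keeps glucocorticoids off the mineralocorticoid receptor in aldosterone target tissue, lay at 185 to 439 (median 285) in colon and 1.05 to 5.87 (median 1.78) in villi (log2 difference 6.74 ± 0.32, limma adjusted p = 1.07e-09; 7.46 in colon 1 to 4 and villi 1 to 3). All 6 colon libraries were far above the villi. Nr5a2, a nuclear receptor that drives intestinal steroid synthesis in mice, was at 13.5 to 21.3 (median 16.3) in colon and 2.04 to 4.57 (median 3.99) in villi (log2 difference 2.04 ± 0.17, limma adjusted p = 2.55e-07). The glucocorticoid target Tsc22d3 was lower, differing by -1.74. Of 11 tested genes for short-chain fatty acids 5 were higher and 3 lower, beside the same shares of all tested genes. Slc5a8, the sodium-coupled butyrate transporter, lay at 46.3 to 95.4 (median 61.4) in colon and 0.0436 to 5.85 (median 0.79) in villi (log2 difference 5.34 ± 0.48, limma adjusted p = 4.11e-07; 6.14 in colon 1 to 4 and villi 1 to 3). Its low-affinity relative Slc5a12 lay at 0.117 to 1.34 (median 0.165) in colon and 9.21 to 70.9 (median 49.9) in villi (log2 difference -5.53 ± 0.50, limma adjusted p = 4.91e-07; -6.86 in colon 1 to 4 and villi 1 to 3). This pair again took opposite sides without overlap. Acsm3, a medium-chain acyl-CoA synthetase, was at 31.5 to 68.1 (median 46.8) in colon and 0.293 to 1.65 (median 1.01) in villi (log2 difference 5.02 ± 0.25, limma adjusted p = 1.64e-09). Ffar2, a receptor for acetate and propionate, was at 6.84 to 11.2 (median 8.46) in colon and 0.428 to 1.10 (median 0.818) in villi (log2 difference 2.72 ± 0.17, limma adjusted p = 1.29e-08), and the lactate exporter Slc16a3 was lower, differing by -3.36.

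Goblet cell genes were mostly higher in colon, with 11 of 15 tested markers higher, 1 lower and a median of 2.39; their summed level was 18062 to 24742 (median 22145) in colon and 10976 to 15199 (median 11901) in villi. Muc2, the gel-forming mucin, lay at 1491 to 3317 (median 1792) in colon and 123 to 177 (median 161) in villi (log2 difference 3.63 ± 0.18, limma adjusted p = 1.51e-09). Klk1, a kallikrein, was at 1870 to 2647 (median 2215) in colon and 36.0 to 91.7 (median 66.5) in villi (log2 difference 5.18 ± 0.22, limma adjusted p = 6.09e-10). Agr2, needed to fold MUC2, was at 1520 to 2533 (median 1786) in colon and 137 to 389 (median 234) in villi (log2 difference 3.01 ± 0.25, limma adjusted p = 2.03e-07; 3.64 in colon 1 to 4 and villi 1 to 3). Creb3l1 differed by 4.42. No colon library overlapped the villi for these 4 genes. The list did not move as a whole. Zg16, a lectin that keeps bacteria off the mucosa, lay at 5930 to 10293 (median 7856) in colon and 6587 to 9649 (median 7464) in villi (log2 difference 0.03 ± 0.18, limma adjusted p = 0.885; -1.34 with ribosomal centring). Tff3, the trefoil peptide, was at 1846 to 3357 (median 2530) in colon and 2554 to 4221 (median 2885) in villi (log2 difference -0.28 ± 0.18, limma adjusted p = 0.185; 0.26 without centring). Fcgbp, a mucus cross-linking protein, was at 533 to 796 (median 696) in colon and 455 to 997 (median 899) in villi (log2 difference -0.18 ± 0.20, limma adjusted p = 0.438; 0.35 without centring), and all 3 overlapped. Muc13, a transmembrane mucin, was lower, differing by -1.47 (limma adjusted p = 1.59e-05), whereas Muc1 was at 5.59 to 18.2 (median 8.71) in colon and 0 to 0.172 (median 0.0351) in villi (log2 difference 3.93 ± 0.25, limma adjusted p = 1.82e-08).

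Of 22 tested defence genes 11 were higher and 7 lower. The REG lectins of the small intestine were lower: Reg1 lay at 0.754 to 302 (median 1.57) in colon and 2473 to 3179 (median 2791) in villi (log2 difference -8.84 ± 1.17, limma adjusted p = 1.85e-05; -10.85 without colon 5 and 6). Reg3g, which kills gram-positive bacteria, lay at 34.0 to 525 (median 85.2) in colon and 542 to 18574 (median 3155) in villi (log2 difference -5.30 ± 0.83, limma adjusted p = 8.03e-05; -6.09 without colon 5 and 6). Reg3b differed by -4.15 (-3.24 in colon 1 to 4 and villi 1 to 3); villi varied widely for both Reg3 genes, which are close relatives whose reads may be shared. Retnlb, a goblet cell protein that acts on gram-negative bacteria, was at 35.3 to 392 (median 235) in colon and 0 to 1.29 (median 0.601) in villi (log2 difference 7.17 ± 0.58, limma adjusted p = 1.58e-07; 8.26 in colon 1 to 4 and villi 1 to 3). Saa1, an acute-phase protein that also has close relatives, was at 728 to 1269 (median 840) in colon and 0 to 23.1 (median 4.03) in villi (log2 difference 7.94 ± 0.87, limma adjusted p = 2.79e-06; 9.83 in colon 1 to 4 and villi 1 to 3). The gene listed as 1810030J14Rik was at 656 to 4740 (median 2472) in colon and 0.73 to 22.8 (median 5.63) in villi (log2 difference 8.68 ± 0.75, limma adjusted p = 2.87e-07; 10.28 in colon 1 to 4 and villi 1 to 3).

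Among hormone genes, Insl5, Pyy and Gcg were higher and Gip, Cck, Ghrl and Sst lower in colon. Of 19 tested markers 4 were higher and 6 lower, against 19.4% and 12.5% of all tested genes. Insl5, a hormone of distal L cells, lay at 50.7 to 98.8 (median 63.1) in colon and 0 to 0.393 (median 0) in villi (log2 difference 6.69 ± 0.19, limma adjusted p = 3.65e-11). Pyy, the satiety peptide of the same cells, lay at 114 to 176 (median 145) in colon and 2.41 to 6.69 (median 4.04) in villi (log2 difference 4.96 ± 0.21, limma adjusted p = 5.94e-10). Gcg, the proglucagon gene, was at 68.5 to 127 (median 83.0) in colon and 8.08 to 20.9 (median 16.3) in villi (log2 difference 2.55 ± 0.23, limma adjusted p = 3.66e-07). The 3 genes separated the tissues without overlap. Gip, the incretin of duodenal K cells, lay at 0 to 10.7 (median 0.112) in colon and 104 to 244 (median 170) in villi (log2 difference -7.18 ± 0.77, limma adjusted p = 2.25e-06; -8.52 without colon 5 and 6). Cck, the peptide that empties the gall bladder, was at 3.69 to 15.3 (median 7.08) in colon and 126 to 184 (median 153) in villi (log2 difference -4.22 ± 0.26, limma adjusted p = 1.19e-08). Ghrl and Sst differed by -4.96 (-5.60 without colon 5 and 6) and -2.80. Chga, a granule protein of nearly all such cells, was at 67.3 to 126 (median 85.4) in colon and 37.7 to 67.5 (median 61.3) in villi (log2 difference 0.65 ± 0.17, limma adjusted p = 0.0043; -0.73 with ribosomal centring), under the minimum difference. Tuft cell genes gave 2 higher and 1 lower of 12 tested, close to the shares of all tested genes (19.4% and 12.5%), with a median of 0.10. Dclk1, their best known marker, was at 1.96 to 2.72 (median 2.50) in colon and 1.62 to 2.62 (median 2.15) in villi (log2 difference 0.07 ± 0.13, limma adjusted p = 0.622; -1.30 with ribosomal centring).

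Paneth cells are absent from the mouse colon and sit at the base of small-intestinal crypts, below the villi. Of 13 tested markers 10 were lower and 2 higher in colon, and the summed level was 618 to 2754 (median 844) in colon and 116 to 4446 (median 1094) in villi, against 11559 to 30743 (median 19079) in crypts. Defa17, a cryptdin with near-identical relatives, lay at 0 to 811 (median 5.17) in colon and 31.4 to 1938 (median 523) in villi (log2 difference -5.58 ± 1.53, limma adjusted p = 0.00563; -6.95 without colon 5, -4.75 without colon 4, -6.27 without villi 2), with overlap. Colon 5 at 811 stood far above the other colon libraries, and Lyz1 at 407 and Itln1 at 127 did the same. Only 7 members were tested in the 4 plain-named libraries of each tissue, 4 of them lower. Without colon 1, colon 2 or villi 4 alone 6 members were called lower. Across all alternatives the members called lower ranged from 0 to 11. Villi 1 and 2 were the lowest villus libraries for 12 and villi 4 the highest for 12 of the 13 genes. Both members higher in colon are also made by other cells: Nupr1, a stress-induced chromatin protein, lay at 372 to 628 (median 439) in colon and 4.65 to 22.8 (median 8.13) in villi (log2 difference 5.55 ± 0.29, limma adjusted p = 2.51e-09). Ang4, a ribonuclease also found in goblet cells, lay at 98.3 to 681 (median 368) in colon and 2.57 to 155 (median 37.7) in villi (log2 difference 3.36 ± 0.85, limma adjusted p = 0.0034; 4.86 in colon 1 to 4 and villi 1 to 3), with overlap.

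Most tested crypt genes were higher in colon. Of 15 tested stem cell and Wnt target genes 11 were higher and 1 lower, against 19.4% and 12.5% of all tested genes. Lgr5, under 1 in every villus library, passed the filter through the colon libraries, and Ephb3 mostly did. That part of the count was fixed or nearly so. The count was also 11 higher and 1 lower without centring and with the offset of the authors' own comparison. With ribosomal centring, which shifted the median of all genes by -1.38, 4 were higher and 3 lower, with a median of 0.43. The count therefore depends on whether that centre is used. Lgr5, the stem cell receptor, lay at 2.16 to 4.79 (median 3.65) in colon and 0.0683 to 0.897 (median 0.391) in villi (log2 difference 1.95 ± 0.22, limma adjusted p = 4.54e-06), against a crypt mean of 4.82. Sox9 was at 9.98 to 44.1 (median 21.3) in colon and 0.957 to 3.04 (median 2.20) in villi (log2 difference 3.08 ± 0.33, limma adjusted p = 2.45e-06; 3.76 in colon 1 to 4 and villi 1 to 3). Ephb3, which sorts cells along the crypt, lay at 5.71 to 11.6 (median 7.16) in colon and 0.253 to 1.34 (median 0.621) in villi (log2 difference 2.67 ± 0.20, limma adjusted p = 8.3e-08). The crypt means of Sox9 and Ephb3 were 15.0 and 4.80, given with no test. The exception was Sp5, a Wnt-induced repressor, at 0.227 to 1.42 (median 0.388) in colon and 23.8 to 28.1 (median 26.9) in villi (log2 difference -4.87 ± 0.21, limma adjusted p = 6.3e-10), where all villus libraries were higher.

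Of 28 tested cell cycle genes 18 were higher and 1 lower, with a median of 1.38. Mki67, the proliferation antigen, lay at 10.8 to 15.9 (median 15.0) in colon and 0.944 to 10.7 (median 3.44) in villi (log2 difference 1.94 ± 0.39, limma adjusted p = 0.000645), against a mean of 35.2 in crypts. Plk1, a mitotic kinase, was at 41.6 to 56.5 (median 49.6) in colon and 5.33 to 16.2 (median 8.57) in villi (log2 difference 2.45 ± 0.22, limma adjusted p = 4.24e-07). Villi 1 and 2 were the lowest villus libraries for 23 and villi 4 the highest for 22 of the 28 genes, and without villi 1 and 2 the list gave 10 higher and none lower of 28, with a median of 0.72. In colon 1 to 4 and villi 1 to 3 alone it gave 24 higher and 1 lower with a median of 2.31. Without centring it gave 24 higher and 0 lower, and with the offset of the authors' own comparison 16 higher and 1 lower. With ribosomal centring it gave 2 higher and 4 lower, so that the direction of the list depends on whether that centre is used. Ribosomal protein genes gave 23 higher and none lower of 24, with a median of 1.27; without villi 1 and 2 it was 11 higher with a median of 0.97, and with the offset of the authors' own comparison 15. Rplp0 was at 654 to 1231 (median 1108) in colon and 198 to 586 (median 372) in villi (log2 difference 1.52 ± 0.26, limma adjusted p = 0.000193; 2.15 in colon 1 to 4 and villi 1 to 3). The summed ribosomal level was 9193 to 17318 (median 15711) in colon and 3799 to 9636 (median 6289) in villi, and crypts lay at 15642 to 23267 (median 17264). Respiratory chain genes ran the other way with 7 lower and none higher of 24, and a median of -0.84. The shares of all tested genes were 12.5% lower and 19.4% higher. With no minimum difference asked, 23 were lower (67.4% of all tested genes pass that looser rule in either direction and 28.4% as lower). Uqcrc1 of complex III was at 163 to 250 (median 223) in colon and 532 to 697 (median 584) in villi (log2 difference -1.46 ± 0.11, limma adjusted p = 7.57e-08). The count of 7 lower was 12 with the authors' offset and 3 without colon 5 and 6 and villi 4 to 6. Without centring it was 0, with a median of -0.31, and with ribosomal centring 24. The count therefore depends on the centre.

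Of 19 tested junction genes 4 were higher and 2 lower, close to the shares of all tested genes (19.4% and 12.5%), so only single genes are described. Cldn8, a sealing claudin of the distal gut, lay at 16.2 to 56.3 (median 28.5) in colon and 0 to 0.508 (median 0.0934) in villi (log2 difference 5.32 ± 0.29, limma adjusted p = 3.64e-09). Cldn15, which forms sodium pores in the small intestine, lay at 85.2 to 131 (median 92.6) in colon and 620 to 904 (median 691) in villi (log2 difference -2.82 ± 0.13, limma adjusted p = 1.14e-09). Neither pair of groups overlapped. Cdh17, a cadherin of intestinal epithelium, was lower, differing by -1.44. Cldn3 and Cldn23 were higher by 1.08 and 1.13, calls lost with the authors' offset at 0.92 and 0.97. Among keratins and desmosome genes 5 of 15 tested were higher and 1 lower, beside the same shares of all tested genes. Krt19 lay at 1301 to 1928 (median 1383) in colon and 226 to 658 (median 412) in villi (log2 difference 1.90 ± 0.25, limma adjusted p = 1.44e-05). Krt7 was at 68.1 to 93.6 (median 79.6) in colon and 19.8 to 31.1 (median 25.3) in villi (log2 difference 1.65 ± 0.13, limma adjusted p = 8.5e-08). Krt20, a keratin of mature surface cells, was lower, differing by -1.60. Epcam, a marker of all epithelium, lay at 817 to 1140 (median 1059) in colon and 893 to 1400 (median 1099) in villi, with overlap (log2 difference -0.11 ± 0.12, limma adjusted p = 0.444; 0.42 without centring). Vil1, a brush-border protein, lay at 230 to 321 (median 293) in colon and 1404 to 2029 (median 1500) in villi (log2 difference -2.53 ± 0.13, limma adjusted p = 2.51e-09). Epcam alone does not show how much of either sample was epithelium. All 15 absorptive markers were lower in colon.

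Markers of cells outside the epithelium varied between the colon libraries. The fibroblast list summed to 15.3 to 169 (median 53.3) in colon and 33.2 to 71.8 (median 57.3) in villi, and smooth muscle to 39.4 to 561 (median 97.6) in colon and 37.4 to 48.5 (median 45.4) in villi. Most defining genes were at or near 0 in villi and many failed the filter since 1 or more colon libraries were also low: 6 of 16 fibroblast and 5 of 12 smooth muscle markers were tested, of which 5 and 3 were higher; with villi near 0 a marker passes only through the colon libraries, so nothing is read from these counts. Dcn, a matrix proteoglycan, lay at 1.66 to 31.7 (median 6.90) in colon and 0 to 0.094 (median 0.0211) in villi (log2 difference 3.56 ± 0.49, limma adjusted p = 2.85e-05; 4.19 in colon 1 to 4 and villi 1 to 3). Acta2, smooth muscle actin, lay at 1.24 to 85.5 (median 11.5) in colon and 0.0836 to 0.872 (median 0.154) in villi (log2 difference 3.57 ± 0.74, limma adjusted p = 0.000805; 4.77 in colon 1 to 4 and villi 1 to 3, 2.94 without colon 3). Colon 3 had the highest values of both. The villus sum of the fibroblast list came almost wholly from Fbln1, which was lower in colon at 0.975 to 3.74 (median 1.44) against 31.3 to 70.0 (median 55.8) in villi (log2 difference -4.60 ± 0.27, limma adjusted p = 7.11e-09). Fabp4, a fat cell protein, was at 0.889 to 45.1 (median 18.0) in colon and 0 to 0.147 (median 0) in villi (log2 difference 4.10 ± 0.79, limma adjusted p = 0.000475; 5.46 in colon 1 to 4 and villi 1 to 3). By contrast, Cidec, a lipid droplet protein also made by enterocytes, was at 2.91 to 10.2 (median 8.05) in colon and 65.7 to 145 (median 92.0) in villi (log2 difference -3.70 ± 0.27, limma adjusted p = 5.91e-08). Plvap, an endothelial protein, was at 1.26 to 7.97 (median 3.84) in colon and 0.0719 to 0.203 (median 0.099) in villi (log2 difference 2.36 ± 0.31, limma adjusted p = 1.87e-05). Markers of neurons and glia were all under the filter, with a sum of 1.82 to 13.1 (median 3.68) in colon and 1.17 to 2.05 (median 1.44) in villi. What part these cells had in the genes called higher in colon was not tested.

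Immune markers were divided by cell type. T cell genes were lower, with 9 of 13 tested lower and none higher, and a sum of 22.6 to 89.3 (median 38.7) in colon and 202 to 439 (median 269) in villi. Gzma and Gzmb, granzymes of the lymphocytes that lie within the villus epithelium, were at 0.0737 to 23.5 (median 3.22) and 0.189 to 4.28 (median 1.48) in colon, against 77.5 to 190 (median 95.8) and 15.3 to 27.6 (median 21.0) in villi, differences of -5.02 (-5.60 without colon 5) and -3.67. Cd3e of the T cell receptor complex lay at 0.84 to 3.24 (median 1.25) in colon and 3.27 to 7.20 (median 4.62) in villi (log2 difference -1.58 ± 0.26, limma adjusted p = 0.000128), without overlap. The 11 B and plasma cell genes had a sum of 17.7 to 72.7 (median 50.1) in colon and 0.238 to 1.77 (median 0.766) in villi. Only 2 of the 11 were tested, and they passed the filter mostly through the colon libraries, so nothing is read from both being higher. Igj, which joins IgA dimers, was at 8.26 to 63.7 (median 37.7) in colon and 0 to 1.14 (median 0.399) in villi (log2 difference 4.98 ± 0.44, limma adjusted p = 3.59e-07; 6.01 in colon 1 to 4 and villi 1 to 3). Macrophage and granulocyte genes gave 4 higher of 5 tested, again mostly fixed by the filter since villi were near 0, with Lyz2 at 10.0 to 37.8 (median 16.0) in colon and 0.443 to 1.05 (median 0.708) in villi (log2 difference 3.79 ± 0.28, limma adjusted p = 6.21e-08). Kit, a mast cell and pacemaker cell receptor that colonic goblet cells also make, was at 12.3 to 20.7 (median 17.8) in colon and 0.652 to 1.58 (median 1.12) in villi (log2 difference 3.32 ± 0.16, limma adjusted p = 1.81e-09). None of 6 tested genes of MHC class II was called by limma, none passed the adjusted threshold alone, and 1 member, H2-DMa, lower in colon, did at an unadjusted p under 0.05. The result rests on single libraries: 1 of then 7 tested was called higher without colon 1 and without any 1 villus library, and 2 were called lower without colon 5, villi 4 or villi 6, and with the authors' offset. Without colon 3 alone 1 was called lower. Cd74 ranged over 37.3 to 170 (median 67.8) in colon and 22.7 to 1366 (median 77.0) in villi, with villi 5 the highest; the difference was -0.29, and 0.49 without villi 5.

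Few genes of cholesterol synthesis and the clock were called. Of 23 tested genes of cholesterol synthesis 1 was called lower and none higher; it was Sc5d, at 38.1 to 69.4 (median 45.1) in colon and 99.7 to 116 (median 110) in villi (log2 difference -1.22 ± 0.13, limma adjusted p = 2.46e-06). None of 15 clock genes was called by limma. The adjusted threshold alone was passed by 1 higher and 5 lower, against 38.9% and 28.4% of all tested genes. The counts of 1 and 5 were the same at an unadjusted p under 0.05. The absence of calls depended on the setting: 5 were called lower without colon 5 and 6 and villi 4 to 6, and 2 with the authors' offset. Without centring 2 were called higher, and with ribosomal centring 12 lower. In the vitamin D libraries 4 were called lower. Immediate early and heat shock genes gave 5 higher and 2 lower of 17, against 19.4% and 12.5% of all tested genes. Dusp1 was at 14.2 to 20.9 (median 17.2) in colon and 2.31 to 7.66 (median 3.92) in villi (log2 difference 1.89 ± 0.21, limma adjusted p = 2.89e-06), and Zfp36 was lower, differing by -1.38.

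Outside the lists, the largest called differences included genes of known regional use. Sycn, syncollin, a secretory granule protein, lay at 855 to 1552 (median 1245) in colon and 1.04 to 20.8 (median 1.86) in villi (log2 difference 8.26 ± 0.55, limma adjusted p = 2.26e-08; 9.26 in colon 1 to 4 and villi 1 to 3). Slc6a14, an amino acid transporter of broad specificity, lay at 209 to 433 (median 288) in colon and 0.0693 to 7.70 (median 0.619) in villi (log2 difference 7.58 ± 0.53, limma adjusted p = 3.53e-08; 8.44 in colon 1 to 4 and villi 1 to 3). Tgm3, a transglutaminase, lay at 124 to 444 (median 337) in colon and 0.117 to 5.28 (median 0.665) in villi (log2 difference 7.60 ± 0.49, limma adjusted p = 1.69e-08; 8.28 in colon 1 to 4 and villi 1 to 3). In all 3 the villi were near 0, with the highest villus values in replicates 4 to 6. Gsdmc2 and Gsdmc4, gasdermins with near-identical relatives, differed by 7.23 (7.94 in colon 1 to 4 and villi 1 to 3) and 7.24 (8.41 in colon 1 to 4 and villi 1 to 3), St6galnac6, a sialyltransferase, by 7.31 (7.93 in colon 1 to 4 and villi 1 to 3), and Wfdc2, a secreted protease inhibitor, by 7.33 (8.06 in colon 1 to 4 and villi 1 to 3). On the other side, Adh6a, an alcohol dehydrogenase, lay at 0.47 to 38.0 (median 0.935) in colon and 1056 to 1705 (median 1520) in villi (log2 difference -8.84 ± 0.86, limma adjusted p = 9.48e-07; -10.39 without colon 5 and 6). Leap2, a liver and gut peptide that opposes ghrelin, was at 0.161 to 10.8 (median 0.593) in colon and 250 to 692 (median 527) in villi (log2 difference -8.04 ± 0.72, limma adjusted p = 4.35e-07; -9.30 without colon 5 and 6). Mbl2, a mannose-binding lectin, lay at 0 to 2.16 (median 0.0286) in colon and 85.4 to 195 (median 117) in villi (log2 difference -7.60 ± 0.40, limma adjusted p = 3.2e-09; -8.20 without colon 5 and 6). Bst1, an ectoenzyme that makes cyclic ADP-ribose, differed by -7.55 (-8.54 without colon 5 and 6).

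The vitamin D libraries, which share no sample with the vehicle comparison, gave close values for the same tissues. Of 10956 genes tested there 3862 (35.3%) were called. Of the 3507 genes called in vehicle libraries 3143 were called the same way, which is 89.6% of the vehicle calls and 81.4% of the vitamin D calls, and 1 was called the opposite way. That gene, Slc37a2, chosen after its values were seen, differed by -1.51 in the vitamin D libraries and by 1.24 in the vehicle libraries (limma adjusted p = 0.00541 and 0.0371), with a limma adjusted p of 0.0918 for the change with the hormone. Across 10760 genes tested in both, which are not independent replicates, the differences correlated with Pearson's r = 0.977. The authors' deposited table for the 1,25(OH)2D3-treated tissues gave the same sign at an adjusted p under 0.05 for 3415 of 3506 such genes that had an adjusted p-value there. Apoa4 differed by -9.79 in the vitamin D libraries against -10.20 in the vehicle libraries, Car1 by 10.05 against 8.94, Hoxb13 by 6.81 against 7.24 and Guca2b by -5.96 against -6.09. Here too the number-prefixed colon libraries carried villus genes, with Apoa4 at 180.8 and 237.2 FPKM as deposited, against 1.283 to 36.2 in the other 5. A test of whether the tissue difference itself differed with the hormone, made across 11903 genes, had 38 genes (0.319%) at a limma adjusted p under 0.05 and 870 at an unadjusted p under 0.05, and no gene named here was among the 38.

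**Figure D5:**
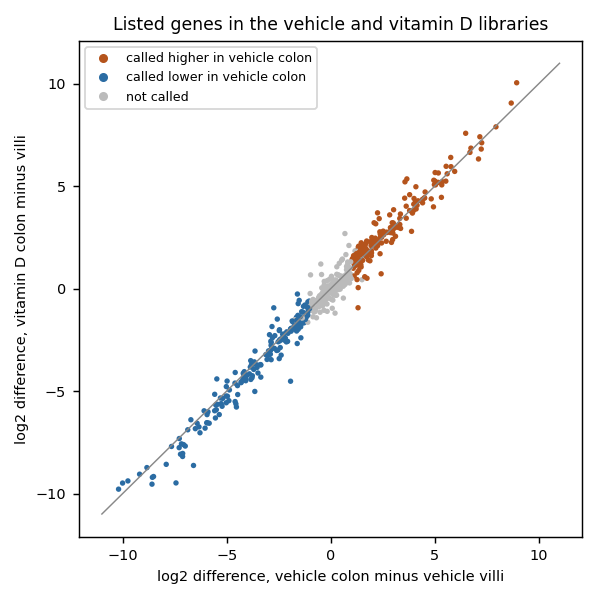
Log2 difference of 569 listed genes between colon and villi in the vehicle libraries (x axis) and in the vitamin D libraries (y axis). Of 357 genes called in the vehicle libraries 356 had the same sign in the vitamin D libraries, and the largest gap between both differences was 2.59.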

How the data were processed

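RNA-seq libraries of colon and villi were compared from the tables that the authors deposited, 1 FPKM table per tissue. Per the file headers, each has 21441 genes and 1 column for a library. The submitters' processing notes name kallisto 0.45.0, DESeq 1.28.1, DESeq2 and the build mm9, with no role for each; what made a given column is not stated there. A table of vitamin D colon against vitamin D villi, also deposited by the authors, holds for each gene a mean signal, a log2 fold change with its log2 standard error and a p-value after adjustment, per the file headers. It was used only for the offset between the tables and for the count of shared signs. Samples were grouped by their titles, and 6 FPKM columns that match no sample of the labels were not used.

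Log2(FPKM + 0.5) was centred per library on its median over genes whose mean FPKM was at least 1 in both groups. Genes that reached an FPKM of 1 in 6 or more of the 12 libraries were tested with limma 3.58.1 in R 4.3.3 (lmFit and eBayes with trend, two-sided), without covariates, after a check on simulated data with known differences. The Benjamini-Hochberg adjustment ran over every gene tested. The vitamin D comparison used its own centring and a filter of 7 of 14 libraries. Crypt levels were centred on genes found in all 3 tissues.

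Depth was read from low FPKM values, of which 86.9% to 92.2% lay within 0.05 of a whole number of reads (10% by chance); these reads served only for depth and for comparing libraries, and no count model was run. Every pair of libraries within a group differed beyond the sampling noise of reads (the least for villi 1 and 2, with a chi-square of 12.7 per degree of freedom). No pair was therefore taken as repeat reads of 1 library, and each counted as 1 replicate. Separate preparations from the same mice could also differ this way, so this does not show that the libraries came from different mice.

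Gene lists held 763 genes, of which 736 were found under that symbol, 11 under an earlier one and 16 not. Members and lists were chosen with earlier results of these data known, and lists are described by counts and medians beside those of all genes. Named genes were Vdr, Cyp24a1, Trpv6, S100g and Atp2b1; up to 4 called members per list and direction by size, with a mean of 5 FPKM or more in the higher group; and the 15 largest called differences in each direction with a mean of 10 FPKM or more and an ordinary symbol; a selection is printed, and some genes are not reported here. Chosen after their values were seen were Agr2, Best2, Cd3e, Cd74, Cdx2, Cftr, Chga, Clps, Dclk1, Epcam, Fcgbp, Gata5, Gata6, Gucy2c, Hnf4a, Hoxa13, Lgr5, Mki67, Plvap, Scnn1a, Scnn1b, Scnn1g, Sis, Slc12a2, Slc26a3, Slc5a1, Slc7a7, Tff3, Vil1 and Zg16. Alternatives of pseudocount, filter, centring, threshold and libraries were run as given in the closing section. Promoter and miRNA sequences are RefSeq's on GRCm38.p6 and were matched by symbol; no coordinates of the deposited mm9 data are used.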

Additional observations from a re-analysis of the deposited data

Results flagged for a closer look

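For the genes named above, 303 groups of 6 libraries were screened for a highest or lowest library that stood apart. A library was flagged when its gap to its neighbour took up more of the group's range than Dixon's critical value allows. Of the groups, 50 (16.5%) had one. The critical value is set for about 5% in normally distributed values. The levels were screened untransformed and the groups share libraries, so 16.5% cannot be set against that 5%. All values are scaled FPKM.

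Colon 5 was the high library in 25 of the 50 groups. Its genes of lipid and mineral uptake were Fabp1 at 587, Mttp at 80.1, Akp3 at 256 and Alpi at 274. Its genes of drug and retinoid metabolism were Cyp3a11 at 111, Cyp3a25 at 26.1, Gsta1 at 242, Gsta4 at 70.8, Rdh7 at 8.14 and Abcc2 at 14.2. The upper-gut factors Gata4 at 9.11, Gata5 at 4.62, Pdx1 at 6.25 and Onecut2 at 2.91 were high there too. So were Mme at 20.2, Slc26a6 at 20.4, Ghrl at 7.70, Sp5 at 1.42 and the granzyme Gzma at 23.5. Of the defence and Paneth cell genes it held the most of Reg1 at 302, Reg3b at 1739, Reg3g at 525, Defa17 at 811, Lyz1 at 407 and Itln1 at 127. All 25 genes were lower in colon than in villi, and in colon 5 all but Defa17, Lyz1 and Itln1 were below the villus median. The source of these transcripts was not tested.

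Villi 6 was the high villus library for 9 genes. Of these, 8 were higher in colon: Car1 at 94.5, Sycn at 20.8, Slc6a14 at 7.70, Atp12a at 6.49, Cyp2d34 at 5.93, Tgm3 at 5.28, St6galnac6 at 4.87 and Slc10a2 at 3.54. The other was Cyp24a1 at 77.5 in villi 6, and Cyp24a1 was also high in colon 6 at 52.7. The column names of colon 6 and villi 6 start with neighbouring numbers, 6 and 5; whether this bears on Cyp24a1 was not tested.

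Colon 6 was high for Cyp2c55 at 946, Sc5d at 69.4 and Mbl2 at 2.16 and low for Rplp0 at 654 and Uqcrc1 at 163. Colon 3 was high for Fabp6 at 122, Acta2 at 85.5 and Dcn at 31.7. Colon 1 was low for Vdr at 100 and high for Muc2 at 3317, and colon 4 was high for Krt19 at 1928. Villi 4 was high for Mki67 at 10.7 and Creb3l1 at 12.4, and villi 5 for Cd74 at 1366 and Slc5a8 at 5.85.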

How the results depend on the processing

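Against 3507 called genes, 2136 higher and 1371 lower in colon, 2003 passed limma's treat at a log2 difference of 1 (1112 higher, 891 lower) and 7403 passed with no minimum difference (4278 higher, 3125 lower). A filter at an FPKM of 5 left 1276 called higher. Without centring 3882 were higher and 814 lower, and with ribosomal protein genes as the centre 7108 were called, 485 higher and 6623 lower; both follow from the shift of the centre given above. The offset taken from the authors' comparison, chosen after seeing the data, gave 1791 higher and 1643 lower. Leaving out 1 library at a time gave 3448 to 3766 calls, 2083 to 2338 higher and 1359 to 1428 lower. Without colon 5 and 6 and villi 4 to 6, also chosen after seeing the data, 4309 genes were called, and in the 4 plain-named libraries of each tissue 3867. Whether same-numbered colon and villus libraries came from the same mice is not known. Correlations of their deviations from the group means were -0.0702, -0.0147, 0.0765, 0.162, 0.251 and -0.125. Colon 3, 4 and 5 correlated most with the villus library of their own number, and the sex pattern matched by number. With replicate number as a block 3516 genes were called. Of 5078 values of 159 named genes under the alternatives, 4946 kept their direction and side of the threshold, 57 lost their call, 22 gained one and 53, of 15 genes, changed sign. Of the 53, 7 were called on one side or both, all with ribosomal centring, which gave -0.25 for Cldn23, -0.29 for Cldn3, -1.25 for Cdx2, -1.14 for Hnf4a, -1.34 for Zg16, -1.30 for Dclk1 and -1.11 for Cftr. The others were not called either way. With ribosomal centring they were -1.17 for Cyp24a1 and -0.73 for Chga. Without centring they were 0.39 for Vdr, 0.31 for Atp2b1, 0.26 for Tff3, 0.35 for Fcgbp, 0.25 for Cd74 and 0.42 for Epcam. With the 75th percentile as the centre they were 0.087 for Vdr, 0.012 for Atp2b1, 0.055 for Fcgbp and 0.12 for Epcam. Quantile normalisation gave 0.32 for Vdr, -0.020 for Cyp24a1, 0.061 for Atp2b1, 0.83 for Tff3, 0.17 for Fcgbp, 0.079 for Cd74, 0.33 for Epcam and -0.47 for Dclk1. The number-prefixed libraries gave 0.41 for Vdr, -0.51 for Cyp24a1, 0.28 for Atp2b1, -0.081 for Cdx2, -0.072 for Zg16 and 0.62 for Fcgbp, and the plain-named ones 0.13 for Cd74 and -0.023 for Dclk1. The authors' offset gave -0.038 for Cdx2, -0.13 for Zg16 and -0.089 for Dclk1. Without colon 5 and 6 the values were -0.19 for Cyp24a1 and -0.078 for Zg16, without villi 1 and 2 they were -0.0072 for Cyp24a1, -0.090 for Cdx2 and -0.0041 for Zg16, and without colon 5 and 6 and villi 4 to 6 Dclk1 was at -0.12. Dclk1 was at -0.0018 with a pseudocount of 1 and -0.016 with array weights. Leaving out 1 library gave -0.61 to 1.18 for Cyp24a1, -0.047 to 0.11 for Zg16 and -0.69 to 0.49 for Cd74. The cause of these changes was not tested. Of 2816 list counts 2550 stayed within 1.5 times the main count. Genes under an FPKM of 1 in most libraries, stromal markers above all, were beyond what this depth and filter could test.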
